A study of Mus musculus with 12 samples.

Results

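The genes described are 33 members of fatty acid oxidation, ketogenesis and the program of the nuclear receptor PPARA, measured in mouse liver. They were taken by symbol from a table of 54532 gene IDs, and all 33 were found and expressed highly enough to be tested. Liver RNA came from wild-type C57BL/6J mice (an inbred strain) in 12 libraries. The 4 groups of 3 libraries were a high-fat diet with 2% dextran sulfate sodium (HFD_DSS), a diet named CD with 2% dextran sulfate sodium (CD_DSS), the high-fat diet alone (HFD) and the CD diet alone (CD). Dextran sulfate sodium (DSS) is a sulfated polysaccharide that injures the colon lining and is used to induce colitis. CD is not spelled out in the labels. Age, sex, route and duration of DSS are not stated in the sources used here. Whether each library is a different mouse is not stated, and p-values therefore speak of the spread among these samples, which may be technical. Per the series title, the study is about a high-fat diet, the liver-gut axis, autophagy and colitis. The comparisons below ask what DSS and what the diet changed among these genes.

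Hepatocytes burn fatty acids in mitochondria after a carnitine shuttle carries the acyl chain across the inner membrane, and each round of beta-oxidation removes an acetyl-CoA by dehydrogenation, hydration, a further dehydrogenation and thiolysis. Very long chains are first shortened in peroxisomes, and a microsomal route hydroxylates the omega end. In fasting, liver turns the acetyl-CoA into ketone bodies for other organs. PPARA, which binds as a pair with RXR to direct repeats of a short half-site, is the textbook activator of these genes in rodents.

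Expression was given as FPKM, the fragments of a gene scaled by its exon length and by a total for the library. The fragments recovered from it summed to 23.4 to 29.4 M per library, and the scaling totals were 0.927 to 1.047 of these sums. The liver label was checked against 15 hepatocyte markers, all of them expressed, with albumin (Alb) at 16129.5 to 37498 FPKM. Adipose and pancreatic markers were low: the summed FPKM of 8 adipocyte markers was 2.93 to 6.50 over the 12 libraries, and that of 10 pancreatic acinar markers was 2.86 to 16.1. In each group 9 of these 10 stayed under 1 FPKM. The Y-chromosome gene Ddx3y had 8.62 to 14.7 FPKM over the 12 libraries and Xist at most 0.0113, the pattern of male tissue. In 3 libraries the values lay between those of the DSS and of the untreated libraries on the first principal component of all tested genes, which held 43.3% of the variance. HFD_DSS 2 lay at −7.64, CD_DSS 1 at 4.75 and HFD 1 at 2.90, whereas the other 4 DSS libraries lay from −30.9 to −21.7 and the other 5 untreated libraries from 19.1 to 21.7. The acute phase gene Saa1 had 1104, 191 and 2670 FPKM in HFD_DSS 1 to 3 and 9.14, 595 and 483 in CD_DSS 1 to 3. It had 579, 19.9 and 22.4 FPKM in HFD 1 to 3 and 15.0, 49.2 and 32.8 in CD 1 to 3. Thus CD_DSS 1 was the lowest library of all, and HFD 1 lay far above the other 5 untreated libraries (15.0 to 49.2). In this respect HFD 1, CD_DSS 1 and HFD_DSS 2 go partly against their labels, and the files do not settle whether a label is wrong. Every value of these 3 is that of the library so labelled, and each DSS or diet comparison that includes them carries this doubt. All 12 libraries were kept, and the member counts are also given without these 3.

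DSS, averaged over both diets, lowered 7 of the 33 genes, and none was called higher. The 7 were the peroxisomal thiolase gene Acaa1b, the acyl-CoA synthetase gene Acsl1, the fatty acid binding protein gene Fabp1, the carnitine palmitoyltransferase gene Cpt2, the short-chain dehydrogenase gene Acads and the auxiliary enzyme genes Eci1 and Decr1. The other 26 were not called, 12 of the 33 had an unadjusted p under 0.05, 24 of the 33 log2 fold changes were negative, and the median was −0.10 against −0.01 over all 10806 genes tested. The test was limma on log2(FPKM + 1) with an adjusted p under 0.05 over all genes tested, by which 20% of all genes were called and 11.2% were called lower. At 7 of 33, or 21.2%, the share of these genes called is near that background, while all 7 calls were in 1 direction. Under other settings single genes were also called higher: Cyp4a14 with a filter at a mean of 5 FPKM, with voom, without HFD_DSS 3 and without CD_DSS 3, and Vnn1 with library weights and without HFD_DSS 1. In all genes 942 were called higher and 1215 lower. With each library rescaled to the same summed FPKM (TPM scaling) 1026 genes were called higher and 737 lower, and of the 33 genes 2 were called, Acsl1 and Acaa1b, both lower.

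Libraries from the same group differed in these genes. The median of the 33 log2 values, each taken as the deviation from its mean over 12 libraries, was −0.15, 0.17 and −0.12 in HFD_DSS 1 to 3 and 0.12, −0.19 and −0.25 in CD_DSS 1 to 3. It was 0.06, 0.31 and 0.13 in HFD 1 to 3 and −0.04, −0.07 and 0.07 in CD 1 to 3. Thus the highest DSS values were those of HFD_DSS 2 and CD_DSS 1, which overlapped with the untreated libraries. Without those 2 libraries and HFD 1, 17 of the 33 genes were called, all 17 lower, and they included the 7 above. The 3 libraries were recognised from the same expression table, so that count is a description of how much they weigh.

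**Figure D1:**
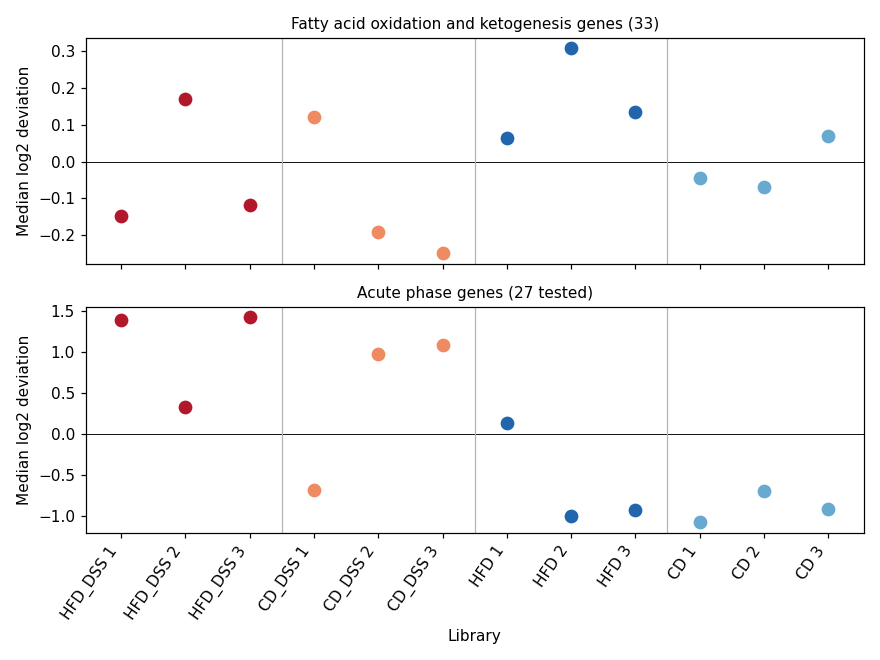
Median log2 deviation from the mean over 12 libraries for the 33 fatty acid oxidation and ketogenesis genes (top) and 27 acute phase genes (bottom), 1 point per library. HFD_DSS 2 and CD_DSS 1 are the highest DSS libraries in the top panel (0.17 and 0.12) and the lowest DSS libraries in the bottom panel (0.33 and −0.67).

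Other gene groups moved with DSS in the same libraries. Of 27 tested acute phase genes 21 were called higher and 1 lower in limma, with a median log2 fold change of 1.43. Their summed FPKM was 25199 to 58458 in HFD_DSS, 14512 to 44049 in CD_DSS, 11127 to 25260.3 in HFD and 11094 to 13293 in CD. Of 14 tested macrophage and Kupffer cell markers 8 were called higher (median 0.56), with summed FPKM of 447 to 644 in HFD_DSS, 368 to 671 in CD_DSS, 326 to 517 in HFD and 329.8 to 406 in CD. Of the 15 hepatocyte markers 3 were called higher and 3 lower (median −0.06), with summed FPKM of 43286 to 66537 in HFD_DSS, 64721 to 69565 in CD_DSS, 50594 to 56343 in HFD and 59068 to 61180.3 in CD. Of 10 neutrophil markers 3 were tested and none was called, though all 3 had an unadjusted p under 0.05 and were higher with DSS (median 1.42). Their summed FPKM over the 10 was 56.2, 4.95 and 48.5 in HFD_DSS 1 to 3, 3.30 to 23.0 in CD_DSS, 22.8, 1.36 and 1.98 in HFD 1 to 3 and 1.45 to 3.49 in CD. Of 14 lymphocyte markers 3 were tested, of which 2 were called higher and 1 lower, with summed FPKM of 28.6 to 32.2 in HFD_DSS, 24.1 to 43.1 in CD_DSS, 11.1 to 27.6 in HFD and 13.5 to 22.4 in CD. Of the tested markers, 2 of 13 endothelial, 2 of 12 stellate and fibroblast and 1 of 3 cholangiocyte genes were called higher and none lower. The only tested pancreatic acinar marker was called lower (log2 fold change −1.17), and none of 3 tested adipocyte markers was called. The part of these groups in the results below was not tested. In bulk RNA, fewer cells of a type and less RNA per cell cannot be told apart.

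**Figure D2:**
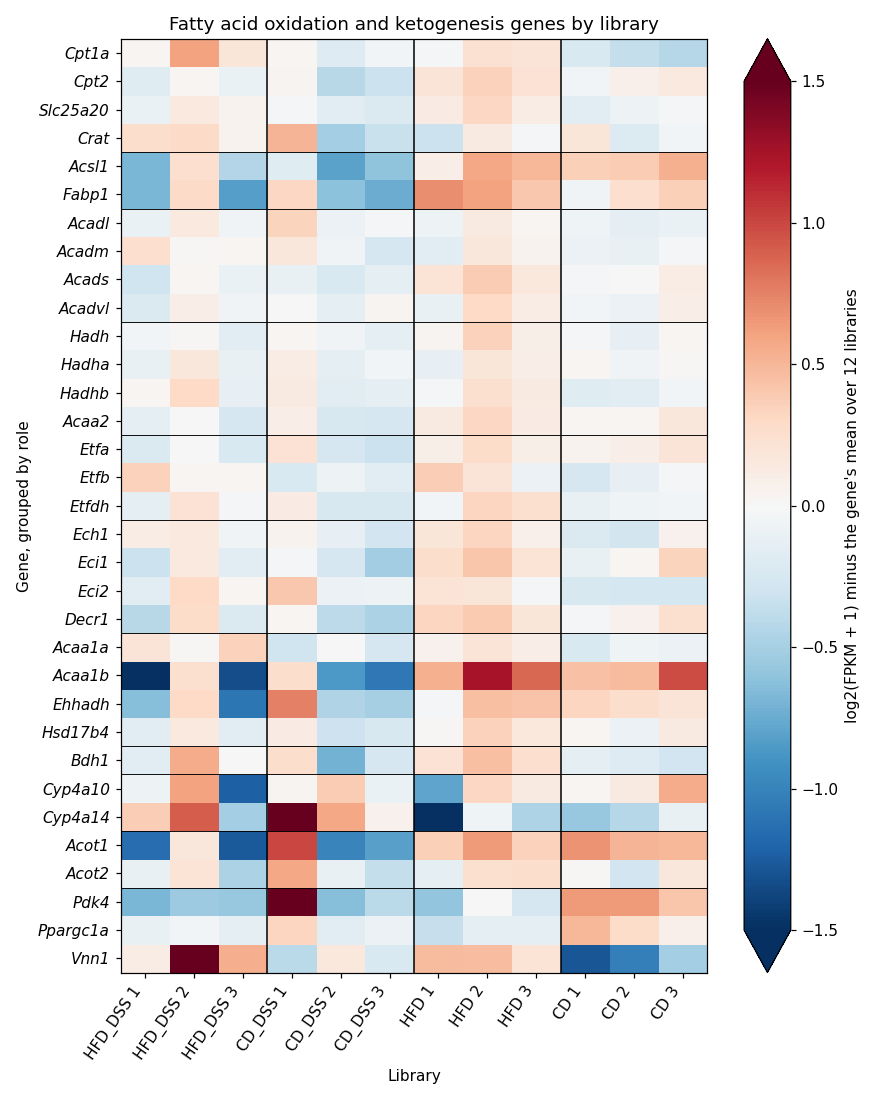
log2(FPKM + 1) of each of the 33 genes in each of the 12 libraries, minus the gene's mean over the libraries (colour, limits at 1.5 either way; arrows on the scale mark values beyond them). Horizontal lines separate role classes; Acaa1b spans the widest low-to-high range among the genes that DSS lowered, with 72.6 FPKM in HFD_DSS 1 and 591 FPKM in HFD 2.

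Fabp1 (chr6:71199827-71205023, plus strand, mm10) encodes the liver fatty acid binding protein and had the highest level of the 33 genes, a mean of 2751 FPKM. Its level was 1604, 3140.3 and 1458 FPKM in HFD_DSS 1 to 3, 3190.5, 1679.6 and 1535 in CD_DSS 1 to 3, 4179, 3932 and 3412 in HFD 1 to 3 and 2490.1, 3079.9 and 3308 in CD 1 to 3. In 4 DSS libraries Fabp1 lay below all untreated libraries, while HFD_DSS 2 and CD_DSS 1 lay among the CD libraries. Averaged over the diets DSS lowered Fabp1 (log2 fold change −0.76, SE 0.22, limma adjusted p = 0.0356). The call held when HFD_DSS 2, CD_DSS 1 or CD 1 was left out and was lost when any 1 of the other 9 libraries was (adjusted p up to 0.086). It was also lost under TPM scaling, with a replicate block and with no filter on low values. On the high-fat diet the groups did not overlap, at 2067 ± 932 FPKM in HFD_DSS and 3841 ± 391 in HFD (SD, n = 3 each; limma adjusted p = 0.0943).

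Of the called genes with a RefSeq promoter window (all but Decr1), Fabp1 was the only one whose window held a match to the PPARA response element with at most 2 mismatches. The motif searched was AGGTCANAGGTCA, both strands, which is 2 AGGTCA half-sites with 1 base between them. Promoter windows of 250 bases before to 50 after the start (RefSeq, GRCm38.p6) were available for 26 of the 33 genes, in 28 windows. Of these 28 windows 3 held such a match (Fabp1, Etfa and Slc25a20), against 3.86% of all 32851 windows. With at most 1 mismatch the match was in 1 of the 28 windows, that of Fabp1, against 0.554% of all windows. The sequence upstream of the GENCODE start of Fabp1 is shown because it carries this match, in capitals (chr6:71199629-71199826, GRCm38.p6, plus strand). The motif lies on the minus strand at chr6:71199812-71199824. Its end lies 3 bases from the GENCODE start and 55 bases from the RefSeq start that set the scanned window.
Fabp1: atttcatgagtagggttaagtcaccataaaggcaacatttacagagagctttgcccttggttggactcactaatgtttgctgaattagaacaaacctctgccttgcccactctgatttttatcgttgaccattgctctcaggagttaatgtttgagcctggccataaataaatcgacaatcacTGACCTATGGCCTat
The match describes the letters in this window and not binding, which these data do not measure.

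Acsl1 (chr8:46471037-46536051, plus strand) encodes a long-chain acyl-CoA synthetase, which activates fatty acids for oxidation and esterification. Its level was 58.8, 114 and 70.2 FPKM in HFD_DSS 1 to 3, 83.9, 54.2 and 62.5 in CD_DSS 1 to 3, 102, 143 and 135 in HFD 1 to 3 and 123, 124 and 138 in CD 1 to 3. All 3 CD_DSS libraries lay below all 3 CD libraries, and HFD_DSS 2 lay within the range of HFD. DSS lowered Acsl1 averaged over the diets (log2 fold change −0.82, SE 0.16, limma adjusted p = 0.00735) and on the CD diet alone (log2 fold change −0.95, SE 0.23, limma adjusted p = 0.0445). The averaged call held with each of the 12 libraries left out in turn (log2 fold change −0.95 to −0.72) and under the 9 other alternatives. Of these, median-of-ratios scaling left the values nearly unchanged and so tested little. The call on the CD diet held without HFD_DSS 1, HFD_DSS 2, CD_DSS 1 or HFD 1 and was lost without any 1 of the other 8 libraries (adjusted p up to 0.155). It was lost too under TPM scaling, with a replicate block and with no filter on low values.

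**Figure D3:**
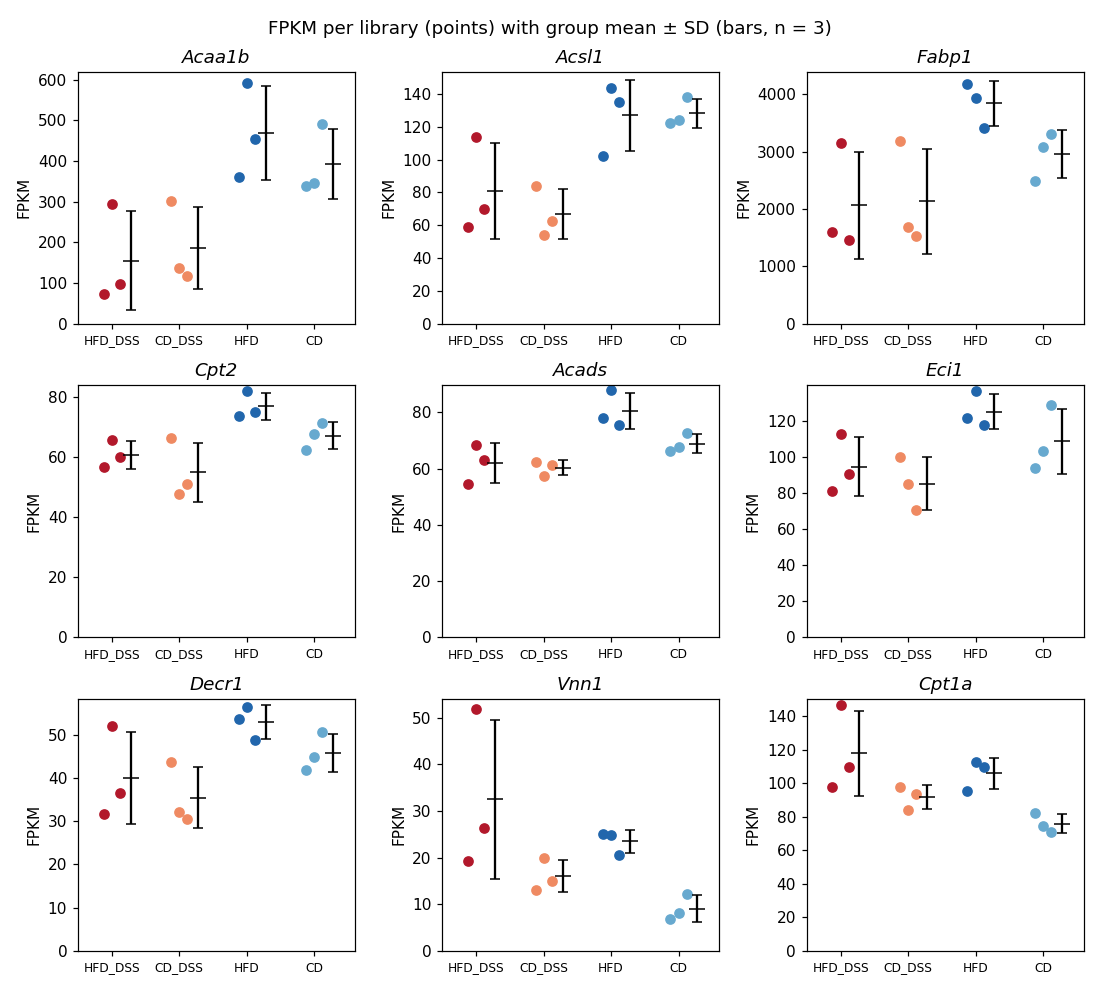
FPKM per library (points) with the group mean and SD (bars, n = 3) for the 7 genes that DSS lowered and for Vnn1 and Cpt1a, the 2 with the smallest adjusted p for the averaged diet effect. Acaa1b and Acsl1 have their DSS points low, and in both CD_DSS 1 and HFD_DSS 2 lie above the other libraries of their group.

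Cpt1a encodes carnitine palmitoyltransferase 1A of the outer mitochondrial membrane, the rate-setting step of the shuttle, and had the highest mean level of its class. It had 98.0, 147 and 109 FPKM in HFD_DSS 1 to 3, 97.8, 84.1 and 93.7 in CD_DSS 1 to 3, 95.3, 112 and 109.9 in HFD 1 to 3 and 82.1, 74.7 and 71.0 in CD 1 to 3. The 3 CD libraries were the lowest of the 12, and all other libraries lay above them. DSS averaged over the diets gave a log2 fold change of 0.20 (95% interval −0.02 to 0.42; limma adjusted p = 0.172), which was not called. Cpt2 (chr4:107903981-107923610, minus strand), the partner enzyme of the inner membrane, had 56.5, 65.7 and 60.0 FPKM in HFD_DSS 1 to 3, 66.1, 47.6 and 51.0 in CD_DSS 1 to 3, 73.6, 82.0 and 74.9 in HFD 1 to 3 and 62.2, 67.6 and 71.2 in CD 1 to 3. HFD_DSS lay below HFD without overlap, and CD_DSS 1 lay within CD. DSS lowered Cpt2 (log2 fold change −0.31, SE 0.09, limma adjusted p = 0.0276). The call held without HFD_DSS 2, CD_DSS 1, HFD 1, HFD 3 or CD 1 and was lost without any 1 of the other 7 libraries (adjusted p up to 0.0694). It was lost as well under TPM scaling, with a replicate block and with no filter on low values. Slc25a20, the carnitine-acylcarnitine translocase, averaged 20.8 ± 1.83, 18.5 ± 1.41, 23.2 ± 1.89 and 19.1 ± 1.02 FPKM in HFD_DSS, CD_DSS, HFD and CD (SD, n = 3 each), and Crat, carnitine acetyltransferase, averaged 10.7 ± 1.00, 8.85 ± 3.98, 8.71 ± 1.52 and 9.00 ± 1.34. Neither was called for DSS.

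Of the 4 dehydrogenase genes, which take the first step of each round and differ in the chain length they prefer, DSS lowered Acads and the other 3 were not called. Acads (chr5:115110299-115119346, minus strand), the short-chain enzyme, had 54.4, 68.5 and 63.0 FPKM in HFD_DSS 1 to 3, 62.4, 57.3 and 61.2 in CD_DSS 1 to 3, 77.9, 87.9 and 75.6 in HFD 1 to 3 and 66.2, 67.8 and 72.7 in CD 1 to 3. The DSS libraries lay below the untreated ones of the same diet without overlap on each diet, although HFD_DSS 2 at 68.5 lay above CD 1 and CD 2. The averaged change was small (log2 fold change −0.28, SE 0.07, limma adjusted p = 0.0204), and its call was lost without CD_DSS 2, without HFD 2 and under TPM scaling. Acadvl, the very long-chain enzyme and the highest of the class, had 69.4, 86.9 and 77.9 FPKM in HFD_DSS 1 to 3, 81.1, 73.4 and 83.0 in CD_DSS 1 to 3, 74.7, 99.99 and 87.2 in HFD 1 to 3 and 78.4, 76.4 and 87.1 in CD 1 to 3, and its groups overlapped. The log2 fold changes with averaged DSS were −0.09 for Acadvl, 0.07 for the long-chain gene Acadl and 0.06 for the medium-chain gene Acadm (95% interval −0.14 to 0.25). Of the exon bases of Acadvl 42.9% overlap Dvl2 on the opposite strand, and whether the counting used strand is not given, so reads of the pair may be mixed.

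Acaa2, the mitochondrial 3-ketoacyl-CoA thiolase, was the highest of its class with 498, 552 and 465 FPKM in HFD_DSS 1 to 3, 591, 469.7 and 464 in CD_DSS 1 to 3, 605, 687 and 603 in HFD 1 to 3 and 564, 562 and 624 in CD 1 to 3. HFD_DSS lay below HFD without overlap, while CD_DSS 1 lay within CD. The averaged difference missed the threshold (log2 fold change −0.26, SE 0.09, limma adjusted p = 0.0551). Hadh, the short-chain hydroxyacyl-CoA dehydrogenase, and the trifunctional protein subunits Hadha and Hadhb were not called, with log2 fold changes of −0.12, −0.05 and 0.01. Hadha varied least of the 33 genes over the libraries, its highest value being 1.27 times its lowest.

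Hadha and Hadhb encode both subunits of 1 protein and start back to back on chromosome 5, Hadha on the minus and Hadhb on the plus strand. The stretch between both annotated starts is shown because the pair shares it (chr5:30155163-30155247, GRCm38.p6, plus strand; 85 bases, 69.4% G and C). No capitals are set, since no match was marked in it.
Hadha and Hadhb: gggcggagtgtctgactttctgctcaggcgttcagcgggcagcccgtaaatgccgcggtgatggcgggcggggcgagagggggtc
The ratio of Hadhb to Hadha FPKM was 0.668, 0.664 and 0.602 in HFD_DSS 1 to 3, 0.615, 0.598 and 0.567 in CD_DSS 1 to 3, 0.646, 0.633 and 0.623 in HFD 1 to 3 and 0.519, 0.554 and 0.583 in CD 1 to 3. The ratio was higher in the 6 high-fat libraries than in the 6 CD libraries by 0.15 on the log2 scale (two-sided exact permutation p = 0.00433, adjusted p = 0.0173 over 8 ratio tests), although HFD_DSS 3 lay below CD_DSS 1. The pair was chosen after values were seen, so the p-value is descriptive. Between the 6 DSS and the 6 untreated libraries the ratio differed by 0.06 (exact permutation p = 0.333, adjusted 0.533).

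Etfa and Etfb encode the flavoprotein that takes electrons from the dehydrogenases and Etfdh its oxidoreductase. Etfa, the highest of the 3, had 129, 149.5 and 128 FPKM in HFD_DSS 1 to 3, 174, 126 and 119.8 in CD_DSS 1 to 3, 159, 182 and 159 in HFD 1 to 3 and 155, 161 and 171 in CD 1 to 3. The HFD_DSS libraries lay below HFD, while CD_DSS 1 was the second highest of all. With DSS averaged over the diets the log2 fold changes were −0.26 for Etfa (limma adjusted p = 0.0793), −0.03 for Etfb and −0.10 for Etfdh, none of them called. Of the exon bases of Etfb 53.0% also belong to Gm45233 on the same strand, so its values are uncertain.

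Eci1, Eci2, Ech1 and Decr1 reposition or reduce the double bonds of unsaturated fatty acids. Eci1 (chr17:24426641-24439348, plus strand), an enoyl-CoA isomerase, had 80.8, 112 and 90.5 FPKM in HFD_DSS 1 to 3, 99.6, 85.1 and 70.3 in CD_DSS 1 to 3, 121, 136 and 117 in HFD 1 to 3 and 93.9, 103 and 128 in CD 1 to 3. Decr1 (chr4:15917240-15945507, minus strand), the 2,4-dienoyl-CoA reductase, had 31.7, 52.0 and 36.5 FPKM in HFD_DSS 1 to 3, 43.6, 32.2 and 30.5 in CD_DSS 1 to 3, 53.7, 56.5 and 48.7 in HFD 1 to 3 and 41.9, 44.8 and 50.7 in CD 1 to 3. In both genes HFD_DSS 2 and CD_DSS 1 were the highest of their groups and overlapped with untreated libraries. DSS lowered Eci1 (log2 fold change −0.38, SE 0.12, limma adjusted p = 0.04) and Decr1 (log2 fold change −0.40, SE 0.13, limma adjusted p = 0.0465). Eci1 was called without HFD_DSS 2, CD_DSS 1 or CD 1 and not without any 1 of the other 9. Decr1 was called without HFD_DSS 2 or CD_DSS 1 and not without any 1 of the other 10. Neither was called under TPM scaling, with a replicate block or with no filter on low values. Ech1, the highest of the class, had 125, 128 and 112 FPKM in HFD_DSS 1 to 3, 120.0, 107 and 94.5 in CD_DSS 1 to 3, 131, 145 and 122 in HFD 1 to 3 and 99.5, 95.2 and 121 in CD 1 to 3. The DSS and untreated libraries of Ech1 overlapped, and neither it (log2 fold change −0.05) nor Eci2 (0.14) was called.

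**Figure D4:**
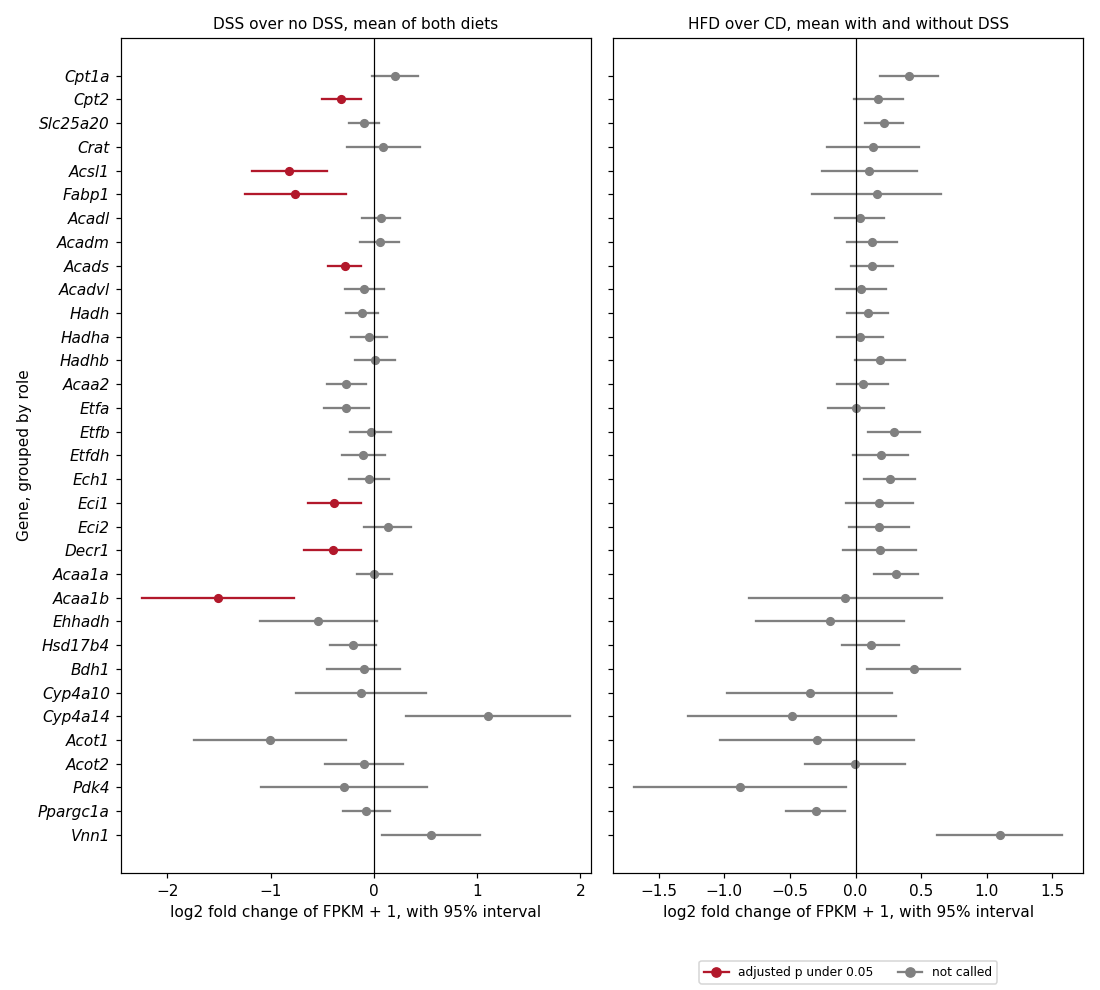
log2 fold change of FPKM + 1 with its 95% interval for the 33 genes, for DSS over no DSS averaged over both diets (left) and the high-fat diet over CD averaged with and without DSS (right). Red marks an adjusted p under 0.05: 7 genes on the left, all below 0, and none on the right.

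Acaa1b (chr9:119148023-119157093, minus strand), 1 of 2 mouse genes for the peroxisomal thiolase, changed most among the 7. It had 72.6, 295 and 98.5 FPKM in HFD_DSS 1 to 3, 301, 137 and 118 in CD_DSS 1 to 3, 361, 591 and 453 in HFD 1 to 3 and 339.6, 347 and 492 in CD 1 to 3. All 6 DSS libraries lay below all 6 untreated ones, the only 1 of the 33 genes for which this held. That share is below the 6.59% of all tested genes that did not overlap between these sets. Averaged over the diets, FPKM + 1 was 2.84-fold lower with DSS (log2 fold change −1.51, SE 0.34, limma adjusted p = 0.0114). The call held with each of the 12 libraries left out in turn (−1.81 to −1.30) and under the 9 other alternatives. Among these, median-of-ratios scaling left the values nearly unchanged and so tested little. Its near copy Acaa1a, chr9:119339676-119350299, plus strand, averaged 43.4 ± 5.12 FPKM in HFD_DSS, 33.3 ± 3.88 in CD_DSS, 41.3 ± 2.04 in HFD and 34.6 ± 2.18 in CD (SD, n = 3 each), and its averaged DSS difference was 0.00 (95% interval −0.17 to 0.17). Ehhadh, the peroxisomal bifunctional enzyme, averaged 59.6 ± 30.9, 79.8 ± 43.3, 94.0 ± 16.7 and 91.9 ± 4.01 FPKM in the same order and was not called (log2 fold change −0.54, SE 0.26, limma adjusted p = 0.161). It was called without HFD_DSS 2 or without CD_DSS 1, in which its values were 94.4 and 129.8 FPKM. Hsd17b4, the D-bifunctional enzyme, was not called either (log2 fold change −0.20).

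Ratios between near copies within a library were compared next, given as FPKM ratios and tested as log2 ratios of FPKM + 1. The pairs were chosen after values were seen. A ratio uses the values of both its genes again, so its p-value is not separate support for either. That of Acaa1b to Acaa1a mostly restates the change of Acaa1b. The ratio of Acaa1b to Acaa1a was 1.67, 7.72 and 2.03 in HFD_DSS 1 to 3, 9.85, 3.63 and 3.73 in CD_DSS 1 to 3, 9.10, 13.6 and 11.1 in HFD 1 to 3 and 10.6, 9.60 and 13.8 in CD 1 to 3. The DSS libraries were lower except CD_DSS 1, which lay among the untreated. The mean log2 ratio of FPKM + 1 differed by −1.51 between the 6 DSS and the 6 untreated libraries (two-sided exact permutation p = 0.00649, adjusted p = 0.0173 over 8 ratio tests; the smallest p possible is 0.00216). Of all 50-base stretches of the Acaa1b transcripts 30.5% also occur in Acaa1a, and how shared reads were counted is not given, so the levels of each are uncertain.

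Cyp4a10 and Cyp4a14 encode fatty acid omega-hydroxylases of the microsomes. Cyp4a10, the higher of the 2 on average, had 42.1, 68.0 and 18.4 FPKM in HFD_DSS 1 to 3, 45.9, 58.3 and 41.3 in CD_DSS 1 to 3, 25.4, 55.2 and 48.9 in HFD 1 to 3 and 45.3, 48.8 and 66.1 in CD 1 to 3. Cyp4a14 had 34.7, 51.1 and 18.4 FPKM in HFD_DSS 1 to 3, 102, 40.6 and 28.1 in CD_DSS 1 to 3, 7.60, 25.5 and 19.1 in HFD 1 to 3 and 17.7, 19.6 and 24.7 in CD 1 to 3. For Cyp4a14 all CD_DSS libraries lay above all CD libraries, and HFD_DSS 3 lay below HFD 2 and HFD 3; for Cyp4a10 the groups overlapped. Neither was called, with averaged DSS log2 fold changes of −0.13 for Cyp4a10 and 1.10 for Cyp4a14 (limma adjusted p = 0.0527). Cyp4a14 was called higher with a filter at a mean of 5 FPKM (limma adjusted p = 0.0444), with voom (adjusted p = 0.0430), without HFD_DSS 3 (0.0405) and without CD_DSS 3 (0.0413). The ratio of Cyp4a14 to Cyp4a10 was 0.823, 0.751 and 0.998 in HFD_DSS 1 to 3, 2.22, 0.696 and 0.680 in CD_DSS 1 to 3, 0.300, 0.462 and 0.391 in HFD 1 to 3 and 0.391, 0.401 and 0.374 in CD 1 to 3. All 6 DSS libraries lay above all 6 untreated ones, a mean log2 difference of 1.23 (two-sided exact permutation p = 0.00216, the smallest possible, and adjusted p = 0.0173). This pair was chosen after values were seen and adjusted over the ratio tests alone, so the p-value does not make Cyp4a14 a called gene. Cyp4a14 and Cyp4a10 shared none of their 50-base stretches, whereas 15.0% of those of Cyp4a10 occur in Cyp4a31 and 24.5% in Cyp4a32.

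Acot1 and Acot2 encode cytosolic and mitochondrial acyl-CoA thioesterases. Acot1 had 1.47, 5.13 and 1.28 FPKM in HFD_DSS 1 to 3, 9.88, 1.75 and 2.09 in CD_DSS 1 to 3, 5.95, 7.45 and 5.92 in HFD 1 to 3 and 7.70, 6.75 and 6.68 in CD 1 to 3. Of the 6 DSS libraries 5 lay below all untreated ones, and CD_DSS 1 was the highest of the 12. It was not called (log2 fold change −1.01, SE 0.34, limma adjusted p = 0.0562) but was without HFD_DSS 2 and without CD_DSS 1. Acot2 averaged 0.943 ± 0.457, 1.22 ± 0.791, 1.29 ± 0.333 and 1.06 ± 0.316 FPKM in HFD_DSS, CD_DSS, HFD and CD, from as few as 26 fragments in a library, and was not called (log2 fold change −0.09). The log2 ratio of Acot1 to Acot2 was 0.91 lower in the DSS libraries (mean difference −0.91, two-sided exact permutation p = 0.00866, adjusted p = 0.0173). This pair too was chosen after values were seen, and the p-value does not make Acot1 a called gene. With a pseudocount of 0.1 the difference was −1.09, since Acot2 lies near 1 FPKM. Of the 50-base stretches of Acot2 24.5% occur in Acot1, so both are uncertain.

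**Figure D5:**
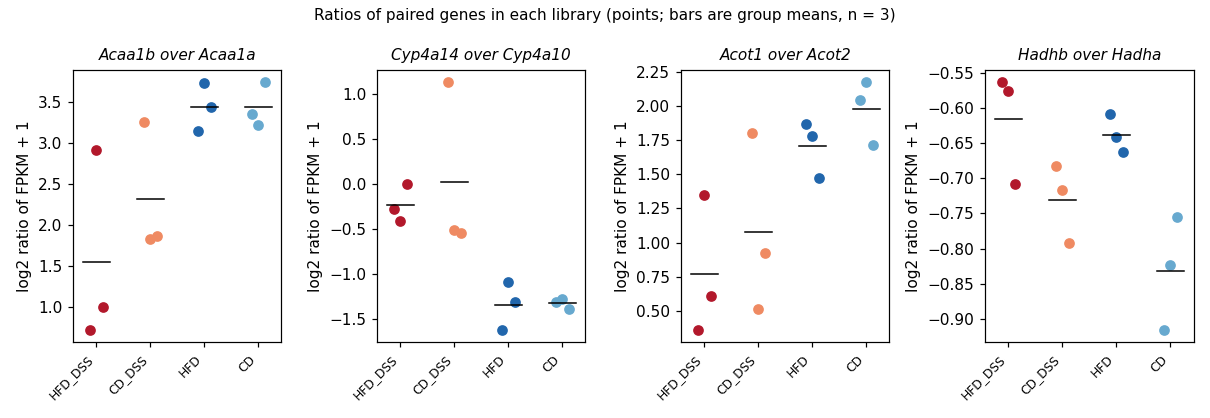
log2 ratio of FPKM + 1 between paired genes in each library (points; horizontal bars are group means, n = 3). The Cyp4a14 to Cyp4a10 panel has all 6 DSS points above all 6 untreated ones, and the Hadhb to Hadha panel has the lowest group mean in CD.

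Bdh1, the ketone body enzyme that interconverts acetoacetate and 3-hydroxybutyrate, had 48.0, 80.2 and 54.4 FPKM in HFD_DSS 1 to 3, 65.3, 32.6 and 45.2 in CD_DSS 1 to 3, 62.9, 74.3 and 64.8 in HFD 1 to 3 and 48.6, 46.9 and 44.2 in CD 1 to 3. Its DSS and untreated libraries overlapped (log2 fold change −0.10, SE 0.16, limma adjusted p = 0.717). Vnn1, a pantetheinase and PPARA target, had 19.3, 51.8 and 26.4 FPKM in HFD_DSS 1 to 3, 13.1, 19.9 and 15.1 in CD_DSS 1 to 3, 25.1, 24.8 and 20.6 in HFD 1 to 3 and 6.72, 8.18 and 12.2 in CD 1 to 3. The 3 CD libraries were the lowest of the 12, and the averaged DSS difference was not called (log2 fold change 0.56, SE 0.22, limma adjusted p = 0.0922). Pdk4, a kinase that holds back pyruvate dehydrogenase, had 1.72, 2.01 and 1.94 FPKM in HFD_DSS 1 to 3, 16.4, 1.80 and 2.30 in CD_DSS 1 to 3, 1.90, 3.38 and 2.68 in HFD 1 to 3 and 5.81, 5.82 and 4.86 in CD 1 to 3. CD_DSS 1 alone stood far above. With all 12 libraries the averaged DSS log2 fold change of Pdk4 was −0.29 and was not called. Leaving out CD_DSS 1 gave −0.71 and a call. That library holds the Pdk4 value most against a decrease, so its removal favours this outcome. The call describes how much CD_DSS 1 weighs and does not show that DSS lowered Pdk4. The coactivator gene Ppargc1a averaged 0.901 ± 0.0683, 1.09 ± 0.388, 0.759 ± 0.145 and 1.48 ± 0.370 FPKM in HFD_DSS, CD_DSS, HFD and CD, too near 1 FPKM for its log2 values to show a difference in full (log2 fold change −0.07).

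Within single diets fewer genes passed. On the CD diet DSS lowered Acsl1 alone among the 33, against 4.8% of all genes called (2.01% higher and 2.79% lower), with a median log2 fold change of −0.06 against −0.01 over all genes. In 7 of the 33 genes the 3 CD_DSS and 3 CD libraries did not overlap, a share below the 27% of all genes. Of the 7, Cpt1a, Eci2, Cyp4a14 and Vnn1 were higher and Acsl1, Acads and Acaa1b lower. For Eci2 these were 35.7, 25.1 and 25.3 FPKM in CD_DSS and 22.5, 22.1 and 22.2 in CD. Without CD_DSS 1, 5 genes were called, and without all 3 libraries that stood apart 10 were, of which Vnn1 was higher and 9 were lower. Over all genes 217 were called higher and 302 lower, or 247 and 153 under TPM scaling, where none of the 33 passed.

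On the high-fat diet DSS gave no called gene among the 33 in limma, against 4.83% of all genes (1.73% higher and 3.1% lower); 9 had an unadjusted p under 0.05, and voom on the recovered fragments called 1, Acaa1b. The median log2 fold change was −0.16 against −0.01. In 9 of the 33 genes HFD_DSS and HFD did not overlap, a share near the 27.1% of all genes. In all 9 HFD_DSS was lower: Cpt2, Fabp1, Acads, Hadh, Acaa2, Etfa, Eci1, Acaa1b and Acot1. Acaa1b had the largest difference (log2 fold change −1.83, SE 0.48, limma adjusted p = 0.0512). Leaving out HFD_DSS 2 gave 5 calls and leaving out CD_DSS 1, which enters the shared estimate of the spread, also gave 5, and without the 3 libraries 14 genes were called, all lower. Over all genes 187 were called higher and 335 lower, or 248 and 123 under TPM scaling.

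The DSS effect was not shown to differ between the diets. The difference of the effects, HFD_DSS against HFD minus CD_DSS against CD, gave no called gene in limma and none with voom, and none of the 33 had an unadjusted p under 0.05; 0.00925% of all genes were called. The difference was negative in 27 of the 33, with a median of −0.12 against −0.01 over all genes. The 95% interval of the difference was −2.12 to 0.83 for Acaa1b and −1.68 to 1.54 for Pdk4.

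The high-fat diet alone gave no called gene among the 33, with either limma or voom, against 0.00925% of all genes. Of the 33, 9 had an unadjusted p under 0.05. The log2 fold change was positive in 26 of 33, with a median of 0.20 against 0.01 over all genes. In 14 of them HFD and CD did not overlap, against 13.1% of all genes: Pdk4 and Ppargc1a were lower, and Cpt1a, Cpt2, Slc25a20, Fabp1, Acads, Hadh, Hadhb, Ech1, Eci2, Acaa1a, Bdh1 and Vnn1 were higher. Vnn1 averaged 23.5 ± 2.50 FPKM in HFD and 9.04 ± 2.85 in CD (SD, n = 3 each), the largest difference of the set (log2 fold change 1.32, SE 0.31, limma adjusted p = 0.266). Cpt1a averaged 106 ± 9.24 FPKM in HFD and 76.0 ± 5.65 in CD (log2 fold change 0.47, SE 0.14, limma adjusted p = 0.455). Bdh1 averaged 67.3 ± 6.13 in HFD and 46.6 ± 2.23 in CD (log2 fold change 0.52, SE 0.23, limma adjusted p = 0.72), and Pdk4 2.65 ± 0.743 in HFD and 5.49 ± 0.552 in CD (log2 fold change −0.85, SE 0.52, limma adjusted p = 0.853). This comparison and that of CD_DSS against CD share the CD libraries.

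The diets were also compared under DSS. None of the 33 was called for HFD_DSS against CD_DSS in limma or voom, against 0.102% of all genes (0.037% higher and 0.0648% lower), 4 had an unadjusted p under 0.05, and the median was 0.03. The groups did not overlap for Cpt1a, Etfb and Acaa1a, all higher in HFD_DSS, a share of the 33 below the 16.5% of all genes. Acaa1a had 43.5, 38.2 and 48.5 FPKM in HFD_DSS 1 to 3 and 30.6, 37.8 and 31.7 in CD_DSS 1 to 3 (log2 fold change 0.37, SE 0.11, limma adjusted p = 0.246). Averaged with and without DSS, the diet comparison called none of the 33 in limma, against 0.342% of all genes (0.0925% higher), with 9 at an unadjusted p under 0.05 and a median of 0.12; voom called 1, Vnn1. Vnn1 came closest in limma (log2 fold change 1.10, SE 0.22, limma adjusted p = 0.0605), followed by Cpt1a (log2 fold change 0.41, SE 0.10, limma adjusted p = 0.111) and Acaa1a (log2 fold change 0.31, SE 0.08, limma adjusted p = 0.115). Acaa1a was the only 1 of the 33 whose 6 high-fat libraries lay above all 6 CD-diet libraries, against 0.87% of all genes.

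The rest of the pathway was taken from lists of 135 further genes of oxidation, peroxisomes, ketone bodies, PPARA targets and their regulators, of which 128 were tested. DSS averaged over the diets raised 6 and lowered 40 of them, with a median log2 fold change of −0.19, against 8.72% of all genes called higher and 11.2% lower. Under TPM scaling 6 were called higher and 21 lower, and without the 3 libraries that stood apart 6 higher and 69 lower. On the CD diet 3 were higher and 8 lower, against 2.01% and 2.79% of all genes, and on the high-fat diet 1 was higher and 11 lower, against 1.73% and 3.1%. These single-diet counts rest on few libraries. On the CD diet no gene was higher and 1 lower without CD_DSS 2, without CD_DSS 3 or without CD 3, none higher and 2 lower without CD 2, 1 higher and 2 lower without CD 1, and 4 higher and 27 lower without CD_DSS 1. On the high-fat diet none was called without HFD_DSS 1 or without HFD 2, and 1 lower was left without HFD_DSS 3 or without HFD 3. There 4 lower and 1 higher were left without CD_DSS 2 or without CD 2, and 6 lower and 1 higher without CD 3. Without HFD_DSS 2 it was 28 lower and 1 higher, without CD_DSS 1 18 lower and 3 higher, and without HFD 1 17 lower and 2 higher. In limma no gene of these lists was called for HFD against CD, HFD_DSS against CD_DSS, the averaged diet comparison or the difference of the DSS effects, where 24, 19, 24 and 7 genes had an unadjusted p under 0.05. With voom 1 was called higher and 1 lower in the averaged diet comparison and none in the other 3.

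In the list of other mitochondrial oxidation genes, which also holds the peroxisomal gene Nudt7, DSS lowered 9 of 20, Nudt7 among them, and none was called higher, against 11.2% of all genes called lower and 8.72% higher. Acadsb, the short/branched-chain dehydrogenase, averaged 17.2 ± 1.86 FPKM in HFD_DSS, 19.9 ± 2.26 in CD_DSS, 23.6 ± 2.00 in HFD and 26.7 ± 1.71 in CD (SD, n = 3 each; log2 fold change −0.42, SE 0.08, limma adjusted p = 0.00523). Nudt7, a coenzyme A hydrolase of peroxisomes, averaged 88.5 ± 48.2, 42.7 ± 11.5, 141 ± 18.4 and 134 ± 31.1 FPKM in the same groups (log2 fold change −1.25, SE 0.29, limma adjusted p = 0.0129). The propionyl-CoA carboxylase gene Pcca (log2 fold change −0.39), the malonyl-CoA decarboxylase gene Mlycd (−0.31), the isovaleryl-CoA dehydrogenase gene Ivd (−0.37) and Acad12 (−0.52) were also lower, and Mlycd and Ivd lost the call under TPM scaling.

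Of the other peroxisomal genes DSS lowered 13 of 33 and raised 1, against the same shares of all genes. Catalase, Cat, averaged 787 ± 97.7 FPKM in HFD_DSS, 919 ± 129 in CD_DSS, 1246 ± 184 in HFD and 1270.5 ± 13.0 in CD (log2 fold change −0.57, SE 0.10, limma adjusted p = 0.00543). The branched-chain and bile acid enzymes Amacr (log2 fold change −0.59) and Acox2 (−0.44), the membrane protein gene Pxmp2 (−0.41) and the biogenesis factor Pex16 (−0.52) were lower. Abcd2, a peroxisomal fatty acid transporter, was higher, at 3.06 ± 0.817, 4.97 ± 0.193, 1.33 ± 0.803 and 1.42 ± 0.848 FPKM in HFD_DSS, CD_DSS, HFD and CD (log2 fold change 1.10, SE 0.19, limma adjusted p = 0.00424).

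Of the other ketone body genes DSS raised 1 and lowered 1 of 8, a count near the shares of all genes called (8.72% higher and 11.2% lower). Slc16a1, a monocarboxylate transporter that carries ketone bodies, averaged 24.8 ± 3.75 FPKM in HFD_DSS, 23.9 ± 2.78 in CD_DSS, 19.1 ± 2.88 in HFD and 17.0 ± 1.90 in CD (log2 fold change 0.42, SE 0.10, limma adjusted p = 0.0154). Bdh2 averaged 1.10 ± 0.307, 1.70 ± 0.103, 2.83 ± 0.909 and 2.66 ± 0.415 FPKM in the same groups (log2 fold change −0.65, SE 0.11, limma adjusted p = 0.00471).

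Of 40 other PPARA targets and omega-oxidation genes 2 were higher and 10 lower, against 8.72% and 11.2% of all genes. Cyp4a12a, an omega-hydroxylase of arachidonic acid, averaged 42.7 ± 21.4 FPKM in HFD_DSS, 31.5 ± 12.0 in CD_DSS, 150.1 ± 12.0 in HFD and 158 ± 59.4 in CD (log2 fold change −2.11, SE 0.30, limma adjusted p = 0.00187). Its near copy Cyp4a12b fell by 2.32 on the log2 scale, and since 48.9% of the 50-base stretches of Cyp4a12a occur in it the pair is uncertain. Cyp4a31, near Cyp4a10 in sequence, was higher (log2 fold change 1.02), while Cyp8b1, the sterol hydroxylase of bile acid synthesis (−0.87), Cyp4f14 (−0.54) and Cyp4f15 (−0.47) were lower. On the CD diet alone Cyp8b1 was also called lower (log2 fold change −1.48, limma adjusted p = 0.003), in 22 of 22 other settings too. It was not called on the high-fat diet, and the difference of its DSS effects was not called either.

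The list of 27 tested nuclear receptors and coregulators also holds enzyme genes such as Acacb, Prkaa2 and Sirt3. Of the 27, 2 were higher and 7 lower, against 8.72% and 11.2% of all genes. The number called higher is near that background. Hnf4a, a hepatocyte transcription factor, averaged 219 ± 18.4 FPKM in HFD_DSS, 226 ± 32.2 in CD_DSS, 145 ± 8.73 in HFD and 160.3 ± 1.08 in CD (log2 fold change 0.53, SE 0.08, limma adjusted p = 0.00231) and was called higher on each diet in limma, on the CD diet in 11 of 22 other settings. Acacb, whose malonyl-CoA inhibits the carnitine shuttle, averaged 3.04 ± 2.48, 4.98 ± 1.93, 6.12 ± 0.941 and 16.4 ± 1.15 FPKM in the same groups (log2 fold change −1.29, SE 0.24, limma adjusted p = 0.00593). The orphan receptor gene Esrra (log2 fold change −0.54), the RXR gene Rxrg (−0.45), the AMP-activated kinase subunit gene Prkaa2 (−0.38) and the mitochondrial deacetylase gene Sirt3 (−0.30) were lower. Prkaa2 was called in 12 and Sirt3 in 13 of 21 other settings: both calls were lost under TPM scaling, with no filter, and without HFD_DSS 1, CD_DSS 2, CD_DSS 3 or HFD 2, that of Prkaa2 also without HFD_DSS 3, HFD 3 or CD 3, and that of Sirt3 also without CD 1 or CD 2. Ppara itself averaged 29.4 ± 9.64 FPKM in HFD_DSS, 32.1 ± 6.35 in CD_DSS, 35.3 ± 12.9 in HFD and 30.1 ± 2.70 in CD and was not called (log2 fold change −0.08, SE 0.20, limma adjusted p = 0.827).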

How the data were processed

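Liver RNA of 12 libraries in 4 groups was measured as FPKM per gene, deposited by the authors in 1 table. Per the submitters' processing notes the genome was mm10. Aligner, counter and use of strand: not given in the sources used here. Groups and library numbers came from the sample labels, and 4 empty columns were not used. IDs were matched to GENCODE M21 symbols (99.8% of 54532). The steps between low values gave whole fragments, 97.0 to 97.3% of values under 500 fragments within 0.02, at scaling totals of 21.7 to 29.8 M per library. The recovered fragments summed to 23.4 to 29.4 M. Rescaling by median-of-ratios left the values nearly unchanged, with a shift of 7.9e-05 in the averaged DSS log2 fold change.

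The 10806 genes that reached 1 FPKM in 3 or more of 12 libraries were tested with limma 3.58.1 (R 4.3.3) on log2(FPKM + 1), so that fold changes of low genes are understated, with 4 group means, a variance trend, two-sided tests and Benjamini-Hochberg adjusted p under 0.05. All 7 comparisons came from this fit. It was tested on simulated data for CD_DSS against CD (10609 genes): 60% of genes changed 1.5-fold and 86% of those changed 2-fold were recovered, and 10 of 178 calls were false. Whether the simulated spread matches that of these libraries is not shown here. A gene not called may therefore still differ 2-fold or more. Exact permutation tests compared the log2 ratios of paired genes. Alternatives were another pseudocount, other filters, scalings and weights, a replicate block, voom on recovered fragments, a fit of the compared groups alone and left-out libraries.

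The members and gene lists were chosen with earlier results of these data known. Values per library are given for called genes and for the highest gene of each role class, and up to 6 called genes per further list by adjusted p. The ratios, the Hadha and Hadhb sequence, the diet examples and the values of Cyp4a14, Pdk4, Eci2, Ehhadh and Ppara were chosen after values were seen. Same-numbered libraries did not deviate together (correlations of −0.356 to 0.258).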

Additional observations from a re-analysis of the deposited data

How the results depend on the processing

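No called value changed sign under the alternatives run. For DSS averaged over the diets, 7 of the 33 genes became 3 with no filter, 2 with TPM scaling, 3 with the replicate block (Acsl1, Acads and Acaa1b), 10 with a filter at a mean of 5 FPKM and 10 with voom (9 lower and 1 higher in each), 14 with library weights and 17 without the 3 libraries that stood apart, and 2 to 12 with 1 library left out; of all genes, 2157 became 4259 with weights, 3372 without the 3, and 1312 to 2664 with 1 left out. For CD_DSS against CD, 1 of the 33 became 0 with no filter, 0 with TPM scaling, 0 with the block, 9 with weights, 10 without the 3 and 0 to 5 with 1 left out; of all genes, 519 became 157 with no filter, 290 with the block, 2592 with weights, 1924 without the 3, 220 with the 2 groups alone and 63 to 1271 with 1 left out. For HFD_DSS against HFD, 0 of the 33 became 2 with a filter at a mean of 5 FPKM, 13 with weights, 14 without the 3, 1 with voom and 0 to 5 with 1 left out; of all genes, 522 became 130 with no filter, 278 with the block, 2820 with weights, 2027 without the 3, 122 with the 2 groups alone and 9 to 904 with 1 left out.

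For HFD against CD, 0 of the 33 became 2 with weights (Cpt1a and Vnn1) and stayed 0 with 1 left out; of all genes, 1 became 6 with no filter, 2 with the filter at 5, 0 with TPM scaling, 3 with the block, 66 with weights, 2 without the 3, 6 with the 2 groups alone and 0 to 3 with 1 left out. For HFD_DSS against CD_DSS, none of the 33 was called in any setting run; of all genes, 11 became 5 with no filter, 21 with the filter at 5, 6 with the block, 147 with weights, 79 without the 3, 4 with the 2 groups alone and 3 to 28 with 1 left out. For the averaged diet comparison, 0 of the 33 became 1 with the filter at 5, 4 with weights, 1 with voom and 0 to 1 with 1 left out; of all genes, 37 became 22 with no filter, 78 with the filter at 5, 23 with the block, 263 with weights, 65 with voom and 17 to 61 with 1 left out. For the difference of the DSS effects, none of the 33 was called in any setting run; of all genes, 1 became 0 with no filter, 0 without the 3 and 0 to 2 with 1 left out. The cause of these moves was not tested.

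The replicate numbers did not pair the libraries, and the block is given as an alternative only. The 4 ratio differences given with an adjusted p of 0.0173 had an exact p under 0.05 with each library left out in turn. The pairs themselves, the ratio alternatives and voom were chosen after seeing the data. Depth limits Acot2 most, with as few as 26 fragments in a library.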
